A study of Arabidopsis thaliana with 18 samples.

Results

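The UDP-glycosyltransferases (UGTs) and glutathione transferases (GSTs) of Arabidopsis roots were followed in 3 genotypes, colonized or not by Pseudomonas WCS417, a bacterium that lives on roots. The genes were taken by their symbols. A probe set, the group of short probes that reads 1 transcript on the array, was taken where its annotation named a single gene and that symbol had the form of a UGT name (UGT72E1, for example) or began with GSTU, GSTF, GSTZ, GSTT or GSTL and a number. This gave 61 of the 13356 genes that had such a probe set, 47 of them UGTs and 14 GSTs. The GSTs were 11 of the tau class (GSTU), 2 of the phi class (GSTF) and 1 of the lambda class (GSTL), and no GSTZ or GSTT symbol was among the single-gene probe sets. Each of the 61 genes had 1 probe set, so taking the brightest one per gene left nothing out. The RefSeq gene table used here (assembly TAIR10.1) lists 106 genes with such symbols, 58 UGTs and 48 GSTs. Those beyond the 61 were not analysed here, among them UGT73B2, UGT73B3, UGT71D1 and UGT89B1, which are named on 3 probe sets shared by several genes.

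Messenger RNA of roots of 19-day-old seedlings was measured on 18 Affymetrix ATH1 arrays, 3 in each of 6 groups, to ask how the root transcription factor MYB72 bears on the response to WCS417. The groups were oxMYB72 with WCS417, oxMYB72 untreated, myb72-2 with WCS417, myb72-2 untreated, Col-0 with WCS417 and Col-0 untreated. Col-0 is the wild type, and myb72-2 is a mutant in that background. The line oxMYB72 carries FLAG-tagged MYB72 under the 35S promoter, a viral promoter active in most cells, so MYB72 need not be confined there to the cells that normally make it. Because oxMYB72 was made in the myb72-2 background, it was compared with myb72-2. For WCS417, 10 microlitres of a suspension were put on each root of 17-day-old seedlings, and roots were sampled 2 days later. The labels do not say whether untreated roots received a mock solution, nor how many independent lines oxMYB72 stands for. The design text calls the 3 replicates biological without giving their plant batches, and p-values here refer to the spread among the samples as deposited.

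UGTs move a sugar, most often glucose from UDP-glucose, onto a small acceptor such as a hormone, a phenolic acid or a flavonoid, which changes its solubility, transport and activity. Tau and phi GSTs join glutathione to reactive, electrophilic compounds, including herbicides and products of oxidation, while lambda GSTs act as thiol transferases. In plants both families are large and arranged in part as tandem repeats, and many members are known as stress-responsive genes of detoxification. In roots, UGTs also act on monolignols, the alcohols of lignin, and on phenolics related to those that roots release.

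All levels below are the deposited RMA expression values on the log2 scale, given in the order of replicates 1, 2 and 3. Differences are of group means on that scale with the standard error from the limma model, and a difference of 1 is 2-fold. A gene was called where the Benjamini-Hochberg adjusted p over all 22746 probe sets was under 0.05, two-sided. Levels of different genes are read by different probes and are not compared. No probe set was named MYB72 in the annotation used, which leaves the genotype labels without a check on the targeted gene. Replicate arrays correlated between 0.991 and 0.998 across probe sets. Of 18 root markers 2 were measured, EXPA7 and BGLU23, and on all 18 arrays the lower of the pair stood at 7.76 or more. With WCS417, EXPA7 was called higher in oxMYB72 (0.52) and myb72-2 (0.51) but not in Col-0 (0.40), and BGLU23 was called in no genotype. The part of this rise in the changes of the UGT and GST genes was not tested.

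With WCS417, genes of both families were called in each genotype, and in oxMYB72 more of them were lower than higher. In oxMYB72, 22 of the 61 genes were called (36.1%), 5 higher and 17 lower, against 19.3% of all probe sets (10.2% higher and 9.09% lower). In myb72-2, 20 were called (32.8%), 8 higher and 12 lower, against 21.4% of all probe sets (8.52% higher and 12.9% lower). In Col-0, 20 were called (32.8%), 9 higher and 11 lower, against 15.3% of all probe sets (6.38% higher and 8.96% lower). Over the 13356 genes with a single-gene probe set the shares called were 17.1% in oxMYB72, 19.4% in myb72-2 and 13.3% in Col-0. The split of higher and lower genes in myb72-2 and Col-0 was close to that of all probe sets. Without Col-0 untreated replicate 2, 9 genes were higher and 7 lower in Col-0, so the balance there turned. The median change of the 61 was near 0 in each genotype, at 0.01 in oxMYB72, -0.04 in myb72-2 and -0.01 in Col-0, against 0.03, 0.00 and 0.00 over all probe sets. Changes of at least 2-fold were called for 8 of the 61 genes in oxMYB72 (1.97% of all probe sets), 5 in myb72-2 (2.54% of all probe sets) and 6 in Col-0 (2.24% of all probe sets). In bulk roots, fewer cells of a type and less RNA per cell cannot be told apart.

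**Figure D1:**
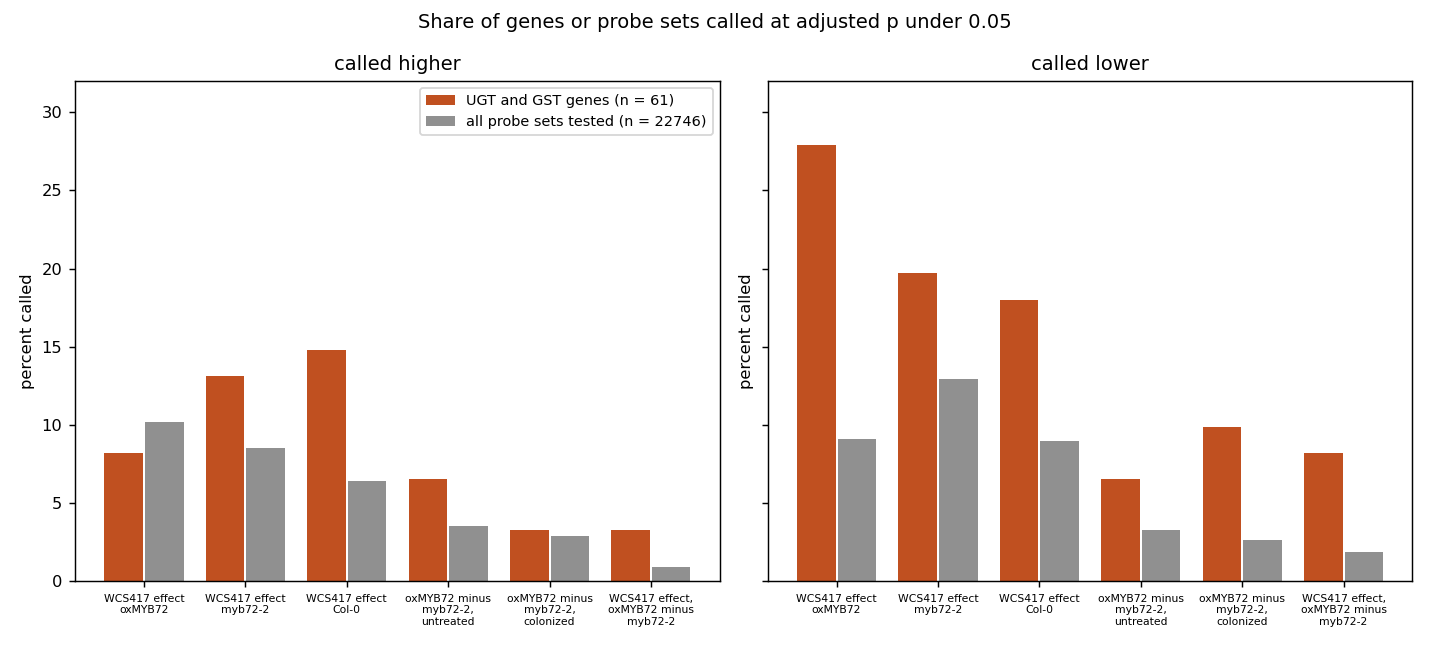
Percent of the 61 UGT and GST genes (orange) and of the 22746 probe sets (grey) called higher (left) and lower (right) in 6 comparisons at an adjusted p under 0.05. The share called lower with WCS417 was 27.9% of the 61 genes in oxMYB72, against 9.09% of all probe sets.

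The 3 responses share no arrays, but the model gave each probe set the same estimate of spread in all 3, so their calls are not independent. They had 15 genes called in the same direction in every genotype. These were 68.2% of the genes called in oxMYB72, 75% of those in myb72-2 and 75% of those in Col-0. Over all probe sets the like shares were 41.7%, 37.6% and 52.4%. The 5 genes that rose in all 3 genotypes were UGT84A1, UGT84A4, UGT72E1, UGT71C3 and GSTU20. The 10 that fell in all 3 were UGT71C4, UGT73B1, UGT73B4, UGT73B5, UGT74D1, UGT76B1, GSTU16, GSTU22, GSTU25 and GSTL3. A further 34 genes were called in none of the 3 responses, for which the share of all probe sets was not counted. In none of the 9 comparisons made were 31 called, and 30 were called in at least 1. Of all probe sets, 9.13% of the dimmest 30% and 44.5% of the others were called in at least 1.

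Green tissue markers fell alongside. Of 14 such genes 3 were measured (LHCB4.1, LHCB4.2 and RCA), and all 3 were called lower in each genotype. Their summed level on the linear scale ranged from 343 to 406 in oxMYB72 with WCS417, against 540 to 643 untreated. In myb72-2 it ranged from 302 to 383 with WCS417, against 770 to 817 untreated, and in Col-0 from 384 to 417 with WCS417, against 736 to 886 untreated. The difference between 3′ and 5′ actin probe sets, a sign of RNA quality, averaged 1.33 in oxMYB72 with WCS417 and 1.19 untreated, 1.33 and 1.27 in myb72-2, and 1.301 and 1.207 in Col-0. For GAPDH the like means were -0.05 and -0.20 in oxMYB72, -0.08 and -0.11 in myb72-2, and -0.03 and -0.19 in Col-0. For ubiquitin they were -0.26 and -0.27 in oxMYB72, -0.30 and -0.18 in myb72-2, and -0.29 and -0.25 in Col-0. With WCS417 the ubiquitin difference was thus lower in myb72-2 and Col-0, where those of actin and GAPDH were higher. The part of green tissue and of RNA quality in the changes of the UGT and GST genes was not tested.

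The genotypes differed less than the treatments. Between myb72-2 and Col-0, limma called 0 of the 61 genes in untreated roots, against 0.0396% of all probe sets (0.0044% higher and 0.0352% lower). Of the 61, 1 had an unadjusted p under 0.05. In colonized roots it again called 0, against 0.127% of all probe sets (0.0176% higher and 0.11% lower), and 8 of the 61 had an unadjusted p under 0.05. The WCS417 effect of myb72-2 minus that of Col-0 was called for 0 genes, against 0.0176% of all probe sets (0% higher and 0.0176% lower), and 2 of the 61 had an unadjusted p under 0.05. The share of all probe sets with an unadjusted p under 0.05 was not counted, so these counts cannot be read as an excess. Between oxMYB72 and myb72-2, 8 genes were called in untreated roots, 4 higher and 4 lower, against 6.81% of all probe sets (3.53% higher and 3.27% lower). In colonized roots 8 were called, 2 higher and 6 lower, against 5.52% of all probe sets (2.86% higher and 2.66% lower). The WCS417 effect of oxMYB72 minus that of myb72-2 was called for 7 genes, 2 higher and 5 lower, against 2.78% of all probe sets (0.928% higher and 1.86% lower). The last 3 comparisons share arrays.

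**Figure D2:**
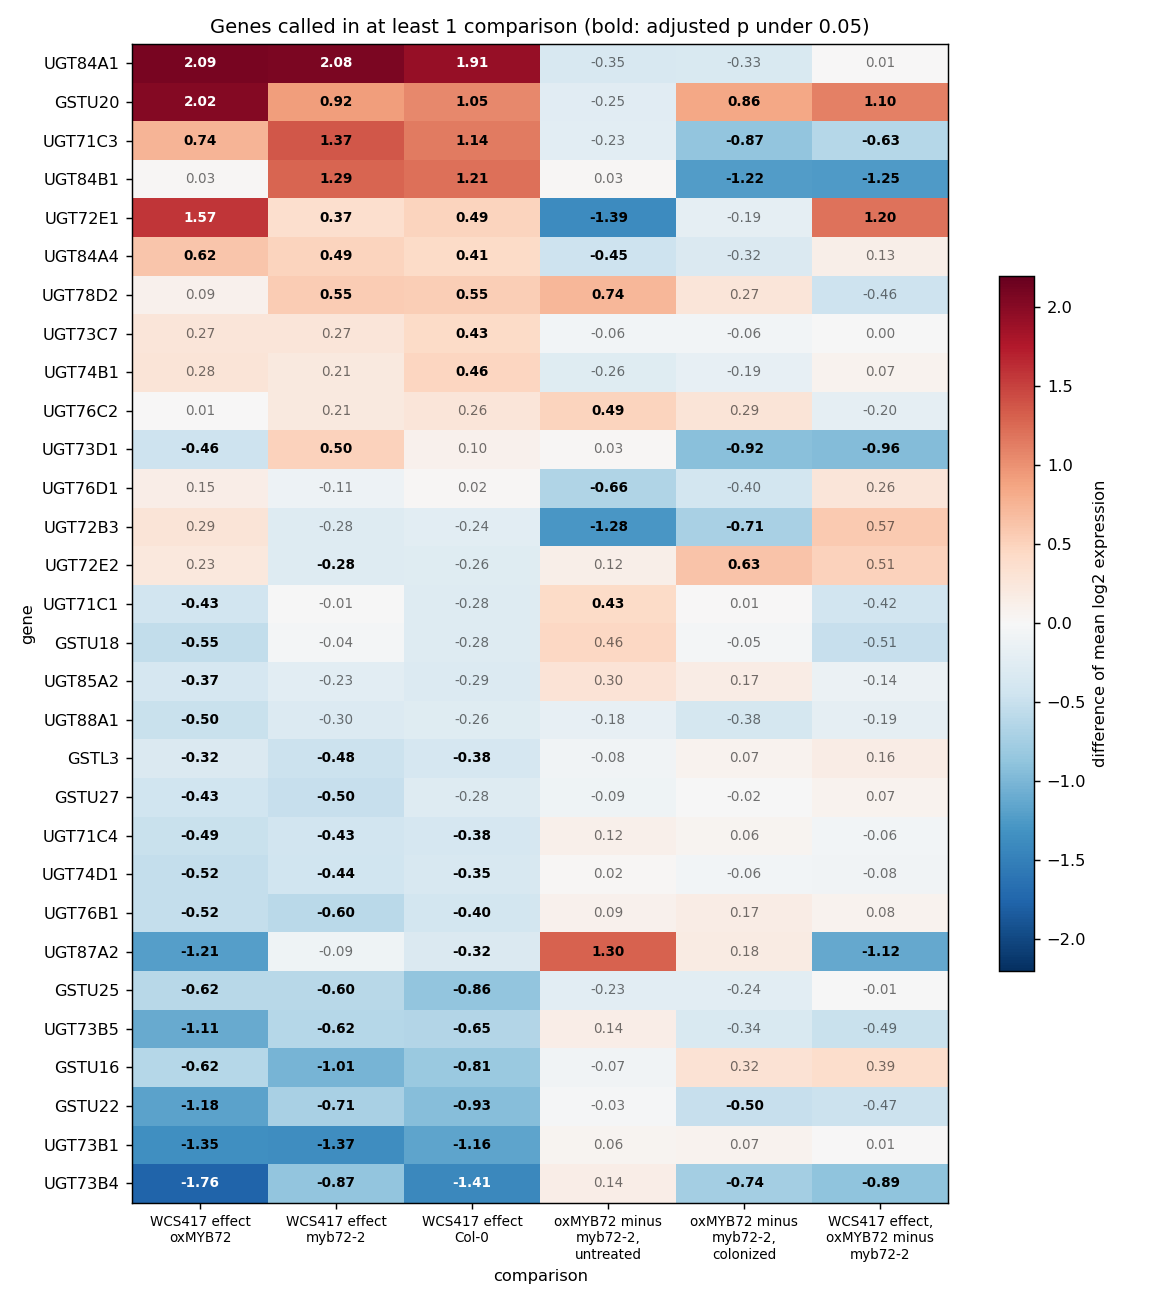
Differences of mean log2 expression of the 30 genes called in at least 1 comparison (rows) in 6 comparisons (columns), with bold numbers where the adjusted p was under 0.05. UGT84A1 at the top rose in every genotype, and UGT73B4 at the bottom fell in every genotype.

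Among the enzymes of phenolic acids, UGT84A1 and UGT84A4 rose with WCS417 in every genotype. The UGT84A enzymes join glucose to hydroxycinnamic acids such as sinapic acid. UGT84A1 (AT4G15480) stood at 6.59, 6.73 and 7.04 in oxMYB72 with WCS417, against 4.86, 4.35 and 4.87 untreated. In myb72-2 it stood at 6.84, 7.18 and 7.34 with WCS417, against 5.33, 4.88 and 4.91 untreated. In Col-0 it stood at 6.78, 7.06 and 7.19 with WCS417, against 4.95, 5.28 and 5.06 untreated. Every colonized array was above every untreated array, by more than 1 log2 unit. The rise was 2.09 ± 0.17 in oxMYB72 (4.26-fold, adjusted p = 1.7e-08). It was 2.08 ± 0.17 in myb72-2 (adjusted p = 1.04e-08) and 1.91 ± 0.17 in Col-0 (adjusted p = 4.16e-08). No other of the 61 genes rose by more in any of the 3 genotypes. No difference between these rises was called, and the interval of the difference was -0.48 to 0.51 for oxMYB72 minus myb72-2 and -0.32 to 0.66 for myb72-2 minus Col-0.

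UGT84A4 (AT4G15500), of the same subfamily, rose by less. Its levels were 7.89, 7.68 and 7.70 in oxMYB72 with WCS417, against 7.19, 7.10 and 7.12 untreated. Levels in myb72-2 were 8.28, 8.18 and 7.78 with WCS417, against 7.81, 7.52 and 7.43 untreated. Levels in Col-0 were 7.92, 8.24 and 8.01 with WCS417, against 7.66, 7.75 and 7.54 untreated. Colonized and untreated arrays were apart in oxMYB72 and Col-0, whereas in myb72-2 colonized replicate 3 lay under untreated replicate 1. The rises were 0.62 ± 0.13 in oxMYB72, 0.49 ± 0.13 in myb72-2 and 0.41 ± 0.13 in Col-0. The call in myb72-2 was lost without its untreated replicate 3 (0.41) or its WCS417 replicate 1 (0.39), or with only the arrays compared (adjusted p = 0.0526). The call in Col-0 was lost without untreated replicates 1 (0.42) or 3 (0.36) or WCS417 replicates 2 (0.32) or 3 (0.44). In untreated roots UGT84A4 was lower in oxMYB72 than in myb72-2, with a difference of -0.45 ± 0.13 (adjusted p = 0.0361), with no overlap between the groups. That call was lost without myb72-2 untreated replicates 1 (-0.34) or 2 (-0.49), without oxMYB72 untreated replicates 1 (-0.48), 2 (-0.43) or 3 (-0.44), and after quantile normalization again (-0.41) or median centring (-0.40). UGT84A3, which lies between UGT84A1 and UGT84A4 on the chromosome, was called in no comparison, with effects of -0.15 in oxMYB72, 0.04 in myb72-2 and -0.29 in Col-0.

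UGT72E1 (AT3G50740) was the gene of this set that differed most between untreated oxMYB72 and myb72-2. UGT72E1, UGT72E2 and UGT72E3 glucosylate monolignols and the corresponding aldehydes. UGT72E1 stood at 10.20, 10.00 and 9.80 in oxMYB72 with WCS417, against 8.33, 8.46 and 8.49 untreated. It stood at 10.20, 10.25 and 10.11 in myb72-2 with WCS417, against 9.80, 9.86 and 9.78 untreated. In Col-0 it stood at 10.47, 10.61 and 10.43 with WCS417, against 10.04, 9.99 and 10.00 untreated. The untreated oxMYB72 arrays were lower than all other arrays, by at least 1 log2 unit, while the colonized oxMYB72 arrays overlapped with colonized myb72-2. The difference in untreated roots was -1.39 ± 0.10 (2.62-fold lower in oxMYB72, adjusted p = 2.63e-09), and in colonized roots it was -0.19 ± 0.10 (adjusted p = 0.363, not called). The WCS417 effect was 1.57 ± 0.10 in oxMYB72 (2.98-fold), 0.37 ± 0.10 in myb72-2 and 0.49 ± 0.10 in Col-0, each called. The effect in oxMYB72 exceeded that in myb72-2 by 1.20 ± 0.14 (adjusted p = 1.18e-05). No call of UGT72E1 was lost when any 1 array was left out.

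UGT72E2 (AT5G66690) was high in colonized oxMYB72. Its levels there were 11.14, 10.98 and 11.10, against 10.76, 10.89 and 10.87 in untreated oxMYB72. In myb72-2 roots it read 10.54, 10.49 and 10.29 with WCS417, against 10.56, 10.73 and 10.87 untreated. In Col-0 roots it read 10.50, 10.52 and 10.57 with WCS417, against 10.77, 10.80 and 10.80 untreated. The colonized oxMYB72 arrays were above all other arrays. Colonized oxMYB72 was higher than colonized myb72-2 by 0.63 ± 0.10 (adjusted p = 0.000197). The WCS417 effect was 0.23 ± 0.10 in oxMYB72 (adjusted p = 0.114) and -0.28 ± 0.10 in myb72-2 (adjusted p = 0.0493). The call in myb72-2 was lost without untreated replicates 2 (-0.27) or 3 (-0.20) or WCS417 replicates 2 (-0.30) or 3 (-0.20). It was also lost after quantile normalization again (-0.22), after median centring (-0.26), with only the arrays compared, with the replicate block and over gene means (adjusted p between 0.0572 and 0.171 in these 5 settings). In Col-0 the effect was -0.26 ± 0.10 (adjusted p = 0.0824), and the difference of the effects, oxMYB72 minus myb72-2, was 0.51 ± 0.14 (adjusted p = 0.054), so neither was called. Both were called under a variance trend with robust moderation. The difference was also called without the dimmest 30% of probe sets, and without untreated replicate 1 or WCS417 replicate 1 of myb72-2. UGT72E3 was called in no comparison, and its 3 WCS417 effects lay between -0.04 and 0.10.

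UGT72B3 (AT1G01420) was lower in oxMYB72 than in myb72-2 whether or not WCS417 was present. Its levels in oxMYB72 were 4.40, 4.26 and 4.91 with WCS417, against 4.32, 4.36 and 4.03 untreated. The myb72-2 arrays gave 5.30, 5.18 and 5.22 with WCS417, against 5.48, 5.47 and 5.58 untreated. The Col-0 arrays gave 5.34, 5.67 and 4.98 with WCS417, against 5.48, 5.83 and 5.40 untreated. All 6 oxMYB72 arrays were below all 12 arrays of the other genotypes. The difference was -1.28 ± 0.17 in untreated roots (adjusted p = 1.69e-05) and -0.71 ± 0.17 in colonized roots (adjusted p = 0.0105). The call in colonized roots was lost without oxMYB72 WCS417 replicate 2 (-0.57). UGT72B3 was the 1 gene of the set called between these genotypes both without and with WCS417, and no WCS417 effect on it was called.

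**Figure D3:**
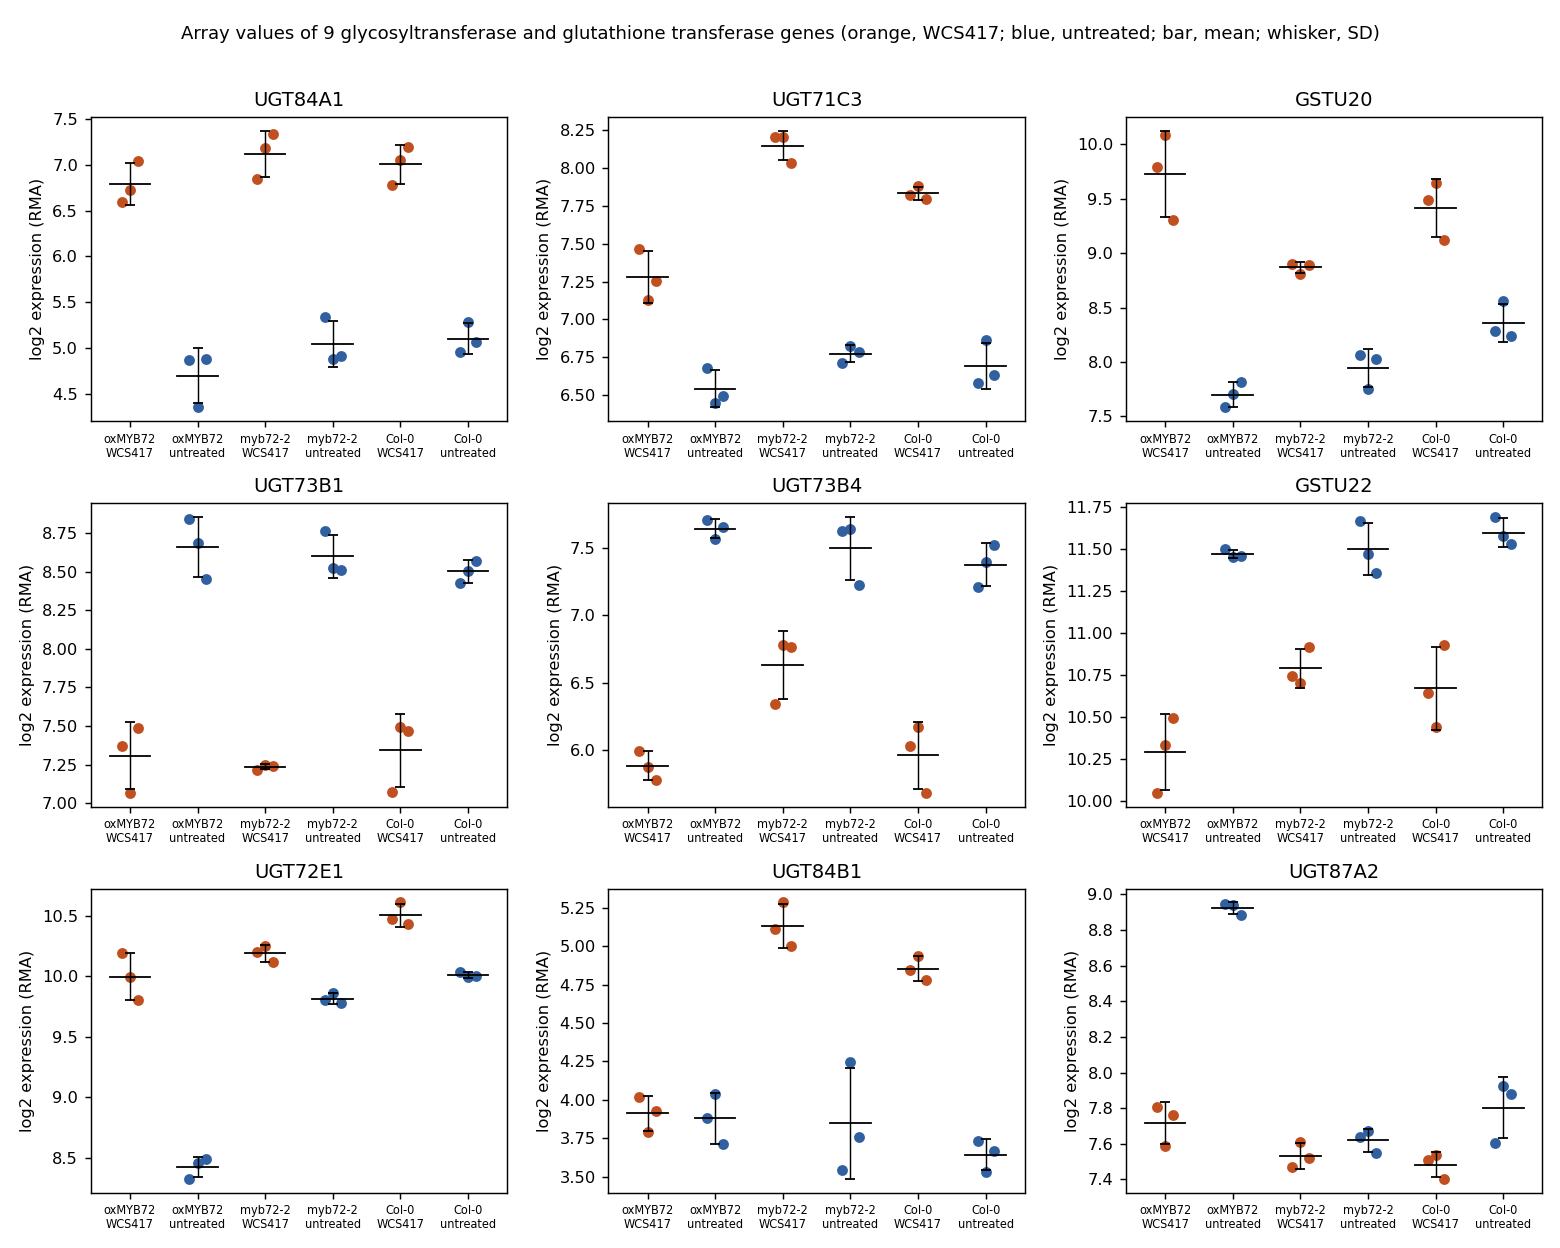
Log2 expression of 9 genes on each of the 18 arrays (points), with group means (bars) and SD (whiskers) over 3 arrays. The 6 groups run from oxMYB72 with WCS417 to untreated Col-0. For UGT72E1 the 3 untreated oxMYB72 arrays lie lowest, and for UGT87A2 they lie highest.

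Among the UGTs known to act on hormones or salicylates, UGT71C3 rose in all 3 genotypes, UGT84B1 rose in myb72-2 and Col-0, and UGT74D1 and UGT76B1 fell in all 3. UGT84B1 (AT2G23260) makes the glucose ester of the auxin indole-3-acetic acid. It stood at 4.02, 3.79 and 3.92 in oxMYB72 with WCS417, against 3.88, 4.04 and 3.71 untreated. For myb72-2 the values were 5.12, 5.29 and 5.00 with WCS417, against 3.54, 4.25 and 3.76 untreated. For Col-0 the values were 4.85, 4.94 and 4.78 with WCS417, against 3.73, 3.53 and 3.67 untreated. Only the colonized arrays of myb72-2 and Col-0 were high, and the colonized oxMYB72 arrays lay within the range of the untreated ones. The effect was 1.29 ± 0.14 in myb72-2 (adjusted p = 7.38e-07) and 1.21 ± 0.14 in Col-0 (adjusted p = 1.85e-06). In oxMYB72 it was 0.03 ± 0.14, with an interval of -0.26 to 0.32. Colonized oxMYB72 was lower than colonized myb72-2, with a difference of -1.22 ± 0.14 (2.33-fold lower, adjusted p = 3.46e-06), and the difference of the effects, oxMYB72 minus myb72-2, was -1.25 ± 0.20 (adjusted p = 0.000446). The probe set of UGT84B1 is among the dimmest 30% of the array, where RMA narrows differences.

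UGT71C3 (AT1G07260) glucosylates methyl salicylate. Its levels in oxMYB72 were 7.47, 7.13 and 7.26 with WCS417, against 6.68, 6.45 and 6.50 untreated. In myb72-2 they were 8.21, 8.21 and 8.04 with WCS417, against 6.71, 6.83 and 6.79 untreated. In Col-0 they were 7.82, 7.88 and 7.80 with WCS417, against 6.58, 6.86 and 6.63 untreated. Colonized arrays were above untreated ones in every genotype, and the colonized oxMYB72 arrays were below those of the other genotypes. The rises were 0.74 ± 0.11 in oxMYB72, 1.37 ± 0.11 in myb72-2 and 1.14 ± 0.11 in Col-0, all called. Colonized oxMYB72 was lower than colonized myb72-2, with a difference of -0.87 ± 0.11 (adjusted p = 9.17e-06). The effect in oxMYB72 was smaller than in myb72-2, with a difference of -0.63 ± 0.15 (adjusted p = 0.0216). That call was lost without untreated replicate 1 (-0.60) or WCS417 replicate 2 (-0.60) of myb72-2, or untreated replicate 1 (-0.56) or WCS417 replicate 2 (-0.56) of oxMYB72.

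UGT76B1, which acts on isoleucic acid, salicylate and N-hydroxypipecolic acid, fell by 0.52 in oxMYB72, by 0.60 in myb72-2 and by 0.40 in Col-0. Its call in Col-0 was lost without untreated replicates 1 (-0.37), 2 (-0.42) or 3 (-0.41) or WCS417 replicates 1 (-0.39) or 2 (-0.36). UGT74D1, an auxin glucosyltransferase, fell by 0.52 in oxMYB72, by 0.44 in myb72-2 and by 0.35 in Col-0. Its call in Col-0 was lost without untreated replicates 1 (-0.33) or 2 (-0.27) or WCS417 replicates 2 (-0.35) or 3 (-0.28), or with only the arrays compared (adjusted p = 0.064). The abscisic acid glucosyltransferases UGT71B6 and UGT71C5 and the salicylate glucosyltransferase UGT74F1 were called in no comparison, with the WCS417 effect of UGT71C5 at -0.09 in oxMYB72, -0.26 in myb72-2 and -0.05 in Col-0.

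UGT76C2 (AT5G05860) and UGT76C1 add glucose to cytokinins. UGT76C2 stood at 8.48, 8.73 and 8.37 in oxMYB72 with WCS417, against 8.56, 8.54 and 8.44 untreated. Levels in myb72-2 were 8.21, 8.34 and 8.15 with WCS417, against 7.94, 8.13 and 8.003 untreated. Levels in Col-0 were 8.08, 8.35 and 8.34 with WCS417, against 8.02, 7.96 and 8.0 untreated. All oxMYB72 arrays were above all arrays of myb72-2 and Col-0. In untreated roots the difference between oxMYB72 and myb72-2 was 0.49 ± 0.11 (adjusted p = 0.00552), and in colonized roots it was 0.29 ± 0.11 (adjusted p = 0.142, not called). The neighbouring UGT76C1 was called in no comparison, and its difference in untreated roots was -0.23 ± 0.14.

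UGT76D1 (AT2G26480) glucosylates dihydroxybenzoic acids, which derive from salicylate. It stood at 6.52, 6.48 and 6.58 in oxMYB72 with WCS417, against 6.53, 6.45 and 6.14 untreated. In myb72-2 roots it read 6.85, 7.19 and 6.73 with WCS417, against 7.11, 6.97 and 7.02 untreated. In Col-0 roots it read 6.73, 7.04 and 6.81 with WCS417, against 6.71, 7.03 and 6.79 untreated. All oxMYB72 arrays were below all arrays of the other genotypes. It was lower in untreated oxMYB72 than in untreated myb72-2, with a difference of -0.66 ± 0.13 (adjusted p = 0.00191). In colonized roots the difference was -0.40 ± 0.13 (adjusted p = 0.079), and no WCS417 effect was called.

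Of the flavonoid UGTs, UGT78D2 (AT5G17050), which glucosylates flavonols and anthocyanidins, was called in 3 comparisons. It stood at 8.41, 8.48 and 8.60 in oxMYB72 with WCS417, against 8.40, 8.44 and 8.40 untreated. The myb72-2 arrays gave 8.23, 8.12 and 8.33 with WCS417, against 7.76, 7.66 and 7.60 untreated. The Col-0 arrays gave 8.08, 8.25 and 8.23 with WCS417, against 7.73, 7.79 and 7.39 untreated. Untreated arrays of myb72-2 and Col-0 were lowest, and both oxMYB72 groups were above all other arrays. The untreated difference between oxMYB72 and myb72-2 was 0.74 ± 0.11 (adjusted p = 7.98e-05). The WCS417 effect was 0.55 ± 0.11 in myb72-2 (adjusted p = 0.000726) and 0.55 ± 0.11 in Col-0 (adjusted p = 0.000959), and 0.09 ± 0.11 in oxMYB72 (not called). The difference of the effects between oxMYB72 and myb72-2 was -0.46 ± 0.15 (adjusted p = 0.14), so the effects were not shown to differ. UGT78D1, a flavonol rhamnosyltransferase, and UGT78D3, a flavonol arabinosyltransferase, were called in no comparison.

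All 3 measured UGT73B genes fell with WCS417 in every genotype. Enzymes of this group act on flavonoids in vitro, and several are induced by stress. UGT73B4 (AT2G15490), which can also glucosylate derivatives of the explosive TNT, stood at 5.99, 5.88 and 5.78 in oxMYB72 with WCS417, against 7.71, 7.57 and 7.65 untreated. For myb72-2 the values were 6.34, 6.78 and 6.77 with WCS417, against 7.62, 7.64 and 7.23 untreated. For Col-0 the values were 6.03, 6.17 and 5.68 with WCS417, against 7.21, 7.39 and 7.52 untreated. Every colonized array was below every untreated array, and the colonized myb72-2 arrays lay above those of the other genotypes. The falls were -1.76 ± 0.14 in oxMYB72 (3.38-fold lower, adjusted p = 1.94e-08), -0.87 ± 0.14 in myb72-2 (adjusted p = 0.000132) and -1.41 ± 0.14 in Col-0 (adjusted p = 3.01e-07). Colonized oxMYB72 was lower than colonized myb72-2, with a difference of -0.74 ± 0.14 (adjusted p = 0.00177). The effect was more negative in oxMYB72 than in myb72-2, with a difference of -0.89 ± 0.20 (adjusted p = 0.015), a call that was lost without myb72-2 untreated replicate 3 (-0.75).

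UGT73B1 (AT4G34138) fell in all 3 genotypes. It stood at 7.37, 7.07 and 7.48 in oxMYB72 with WCS417, against 8.85, 8.68 and 8.46 untreated. Levels in myb72-2 were 7.22, 7.25 and 7.24 with WCS417, against 8.76, 8.53 and 8.51 untreated. Levels in Col-0 were 7.07, 7.49 and 7.47 with WCS417, against 8.43, 8.51 and 8.57 untreated. Colonized and untreated arrays did not overlap, with nearly 1 log2 unit or more between them. The falls were -1.35 ± 0.13 in oxMYB72 (adjusted p = 1.91e-07), -1.37 ± 0.13 in myb72-2 (adjusted p = 1.17e-07) and -1.16 ± 0.13 in Col-0 (adjusted p = 1.22e-06). The interval of the difference between effects was -0.37 to 0.39 for oxMYB72 minus myb72-2.

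UGT73B5, the neighbour of UGT73B4 and a gene with a part in resistance to Pseudomonas syringae, had levels of 7.08, 7.54 and 7.26 in oxMYB72 with WCS417, against 8.41, 8.51 and 8.29 untreated. In myb72-2 they were 7.70, 7.40 and 7.82 with WCS417, against 8.45, 8.19 and 8.14 untreated, and in Col-0 7.42, 7.65 and 7.60 with WCS417, against 8.11, 8.29 and 8.21 untreated. Again no colonized array reached an untreated one. It fell by 1.11 in oxMYB72, by 0.62 in myb72-2 and by 0.65 in Col-0.

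UGT73D1 (AT3G53150) was called in opposite directions in oxMYB72 and in myb72-2. It stood at 6.51, 5.94 and 6.41 in oxMYB72 with WCS417, against 6.93, 6.78 and 6.52 untreated. In myb72-2 roots it read 7.23, 7.21 and 7.19 with WCS417, against 6.97, 6.70 and 6.46 untreated. In Col-0 roots it read 6.92, 6.81 and 6.90 with WCS417, against 6.83, 6.78 and 6.73 untreated. The colonized oxMYB72 arrays were the lowest except that untreated myb72-2 replicate 3 was below the highest of them, and the colonized myb72-2 arrays were the highest of all. The effect was -0.46 ± 0.14 in oxMYB72 (adjusted p = 0.0245), 0.50 ± 0.14 in myb72-2 (adjusted p = 0.0131) and 0.10 ± 0.14 in Col-0 (not called). The call in oxMYB72 was lost without untreated replicates 1 (-0.36) or 2 (-0.44) or WCS417 replicate 2 (-0.28), or with only the arrays compared (adjusted p = 0.072), and that in myb72-2 without untreated replicate 3 (0.37). Colonized oxMYB72 was lower than colonized myb72-2, with a difference of -0.92 ± 0.14 (adjusted p = 0.000129), and the difference of the effects, oxMYB72 minus myb72-2, was -0.96 ± 0.20 (adjusted p = 0.00699). Neither of these calls was lost without any 1 array. UGT73C7, the gene next to UGT73D1, rose in Col-0 (0.43 ± 0.13), a call lost without untreated replicates 1 (0.39) or 3 (0.34) or WCS417 replicates 1 (0.45) or 3 (0.29), after quantile normalization again (0.38) and with only the arrays compared (adjusted p = 0.0553). UGT73C1 and UGT73C2 were called in no comparison.

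**Figure D4:**
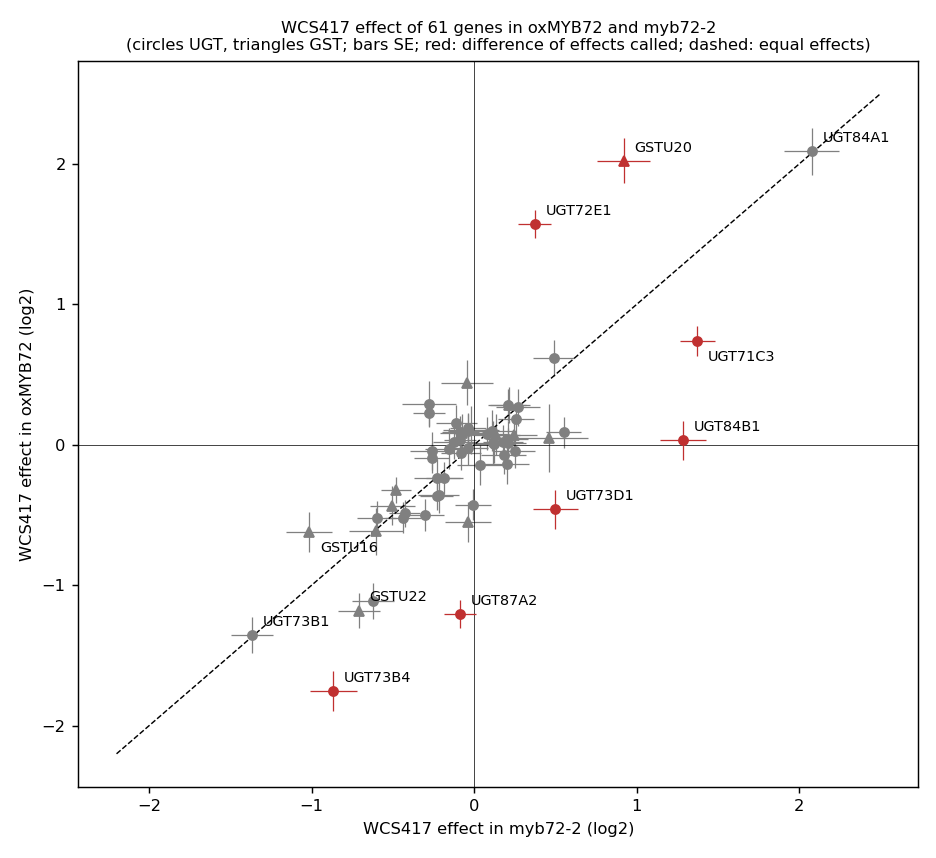
WCS417 effect on log2 expression of each of the 61 genes in oxMYB72 (vertical) and in myb72-2 (horizontal), with SE as bars, circles for UGTs and triangles for GSTs. The 7 red genes are those whose effects were called different, with UGT72E1 and GSTU20 above the dashed line of equal effects and UGT71C3, UGT84B1, UGT73D1, UGT87A2 and UGT73B4 below it.

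UGT87A2 (AT2G30140), a regulator of flowering time, was high in untreated oxMYB72. It stood at 7.81, 7.58 and 7.76 in oxMYB72 with WCS417, against 8.94, 8.94 and 8.88 untreated. The myb72-2 arrays gave 7.47, 7.61 and 7.52 with WCS417, against 7.64, 7.67 and 7.55 untreated. The Col-0 arrays gave 7.51, 7.54 and 7.40 with WCS417, against 7.61, 7.92 and 7.88 untreated. The untreated oxMYB72 arrays were above all others by nearly 1 log2 unit, and the colonized oxMYB72 arrays overlapped with colonized myb72-2. The untreated difference between oxMYB72 and myb72-2 was 1.303 ± 0.10 (2.47-fold, adjusted p = 6.28e-09), and the colonized difference was 0.18 ± 0.10 (not called). The WCS417 effect was -1.21 ± 0.10 in oxMYB72 (adjusted p = 2.23e-08), -0.09 ± 0.10 in myb72-2 (not called) and -0.32 ± 0.10 in Col-0 (adjusted p = 0.032). The call in Col-0 was lost without untreated replicates 2 (-0.26) or 3 (-0.28) or WCS417 replicates 1 (-0.33) or 3 (-0.28), after quantile normalization again (-0.28) and with only the arrays compared (adjusted p = 0.0649). The effect in oxMYB72 was more negative than in myb72-2, with a difference of -1.12 ± 0.14 (adjusted p = 2.54e-05).

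UGT71C1 (AT2G29750) was also higher in untreated oxMYB72. It stood at 9.47, 9.38 and 9.72 in oxMYB72 with WCS417, against 9.95, 10.05 and 9.84 untreated. For myb72-2 the values were 9.42, 9.64 and 9.47 with WCS417, against 9.62, 9.53 and 9.41 untreated. For Col-0 the values were 9.28, 9.19 and 9.06 with WCS417, against 9.55, 9.48 and 9.33 untreated. The untreated oxMYB72 arrays were above all others. They exceeded untreated myb72-2 by 0.43 ± 0.11 (adjusted p = 0.0175), a call lost without myb72-2 untreated replicates 2 (0.44) or 3 (0.37) or oxMYB72 untreated replicates 1 (0.43) or 2 (0.38). The WCS417 effect was -0.43 ± 0.11 in oxMYB72 (adjusted p = 0.00802), a call lost without untreated replicate 2 (-0.38) or WCS417 replicate 2 (-0.36), and it was not called in myb72-2 (-0.01) or Col-0 (-0.28).

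In all, the untreated difference between oxMYB72 and myb72-2 held 4 higher genes (UGT87A2, UGT78D2, UGT76C2 and UGT71C1) and 4 lower genes (UGT72E1, UGT72B3, UGT76D1 and UGT84A4). The share that was higher, 50%, was 62.5% of 8 calls after quantile normalization of the values again and 66.7% of 9 calls after median centring. No GST was among the 8, although GSTU18 (0.46) was called under those scalings, with only the arrays compared and without the dimmest probe sets, and GSTU26 (-0.44) was called lower with only the arrays compared. Green tissue markers were lower here too, at a summed level of 540 to 643 in untreated oxMYB72 and 770 to 817 in untreated myb72-2, and LHCB4.1 (-0.44) and LHCB4.2 (-0.55) were called. Their part in the differences of the UGT genes was not tested.

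Among the other UGTs, UGT71C4 fell in all 3 genotypes, by 0.49 in oxMYB72, by 0.43 in myb72-2 and by 0.38 in Col-0. Its call in Col-0 was lost without untreated replicate 2 (-0.31) or WCS417 replicate 3 (-0.32). UGT85A2 (-0.37) and UGT88A1 (-0.50) were called lower with WCS417 in oxMYB72. In myb72-2 and Col-0 they were not called, at -0.23 and -0.295 for UGT85A2 and -0.30 and -0.26 for UGT88A1. For neither gene was the difference of the effects, oxMYB72 minus myb72-2, called. UGT74B1, which carries out a step of glucosinolate synthesis, rose in Col-0 (0.46 ± 0.11), a call lost without untreated replicate 1 (0.36), and was not called in myb72-2 (0.21) or oxMYB72 (0.28). The 4 UGT71B genes, the 4 UGT76E genes and the sterol glucosyltransferase UGT80B1 were called in no comparison.

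Among the GSTs, GSTU20 was the 1 member called higher with WCS417. In oxMYB72, 1 GST was called higher and 6 lower of 14, in myb72-2 the counts were 1 and 5, and in Col-0 1 and 4. Of all probe sets 10.2% were higher and 9.09% lower in oxMYB72, 8.52% and 12.9% in myb72-2, and 6.38% and 8.96% in Col-0, so 1 GST of 14 (7.14%) is near the share of higher probe sets. GSTU20 (AT1G78370) encodes a tau GST that binds the jasmonate-conjugating enzyme FIN219, also called JAR1. It stood at 9.79, 10.08 and 9.30 in oxMYB72 with WCS417, against 7.58, 7.71 and 7.81 untreated. Levels in myb72-2 were 8.90, 8.81 and 8.89 with WCS417, against 8.07, 7.75 and 8.03 untreated. Levels in Col-0 were 9.49, 9.64 and 9.12 with WCS417, against 8.29, 8.56 and 8.24 untreated. Colonized arrays were above untreated ones in every genotype, and the colonized oxMYB72 arrays were above those of myb72-2 but overlapped with those of Col-0. The rise was 2.02 ± 0.16 in oxMYB72 (4.07-fold, adjusted p = 1.43e-08), 0.92 ± 0.16 in myb72-2 (adjusted p = 0.000242) and 1.05 ± 0.16 in Col-0 (adjusted p = 6.5e-05). Colonized oxMYB72 exceeded colonized myb72-2 by 0.86 ± 0.16 (adjusted p = 0.0014), and the effects differed by 1.10 ± 0.23 (adjusted p = 0.00685).

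GSTU22 (AT1G78340), from the same stretch of chromosome as GSTU20, fell in every genotype. It stood at 10.05, 10.33 and 10.49 in oxMYB72 with WCS417, against 11.50, 11.45 and 11.46 untreated. In myb72-2 roots it read 10.75, 10.71 and 10.92 with WCS417, against 11.67, 11.47 and 11.36 untreated. In Col-0 roots it read 10.64, 10.44 and 10.93 with WCS417, against 11.69, 11.58 and 11.53 untreated. All colonized arrays were below all untreated ones. The falls were -1.18 ± 0.13 in oxMYB72 (adjusted p = 9.88e-07), -0.71 ± 0.13 in myb72-2 (adjusted p = 0.000324) and -0.93 ± 0.13 in Col-0 (adjusted p = 1.8e-05). Colonized oxMYB72 was lower than colonized myb72-2, with a difference of -0.50 ± 0.13 (adjusted p = 0.0195), a call lost without myb72-2 WCS417 replicate 3 (-0.43) or oxMYB72 WCS417 replicate 1 (-0.38), or with only the arrays compared (adjusted p = 0.122).

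GSTU25 (AT1G17180), an enzyme that conjugates TNT, and GSTU16 (AT1G59700) fell too. GSTU25 stood at 9.56, 9.78 and 9.63 in oxMYB72 with WCS417, against 10.14, 10.31 and 10.37 untreated. The myb72-2 arrays gave 9.93, 9.68 and 10.08 with WCS417, against 10.93, 10.39 and 10.18 untreated. The Col-0 arrays gave 9.94, 9.68 and 9.81 with WCS417, against 10.96, 10.73 and 10.34 untreated. Within each genotype the colonized arrays were below the untreated ones. The falls of GSTU25 were -0.62 ± 0.17 in oxMYB72, -0.60 ± 0.17 in myb72-2 and -0.86 ± 0.17 in Col-0. The call in myb72-2 was lost without untreated replicate 1 (-0.39) or WCS417 replicate 2 (-0.50).

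GSTU16 stood at 4.91, 4.28 and 4.54 in oxMYB72 with WCS417, against 5.41, 5.18 and 5.00 untreated. For myb72-2 the values were 4.04, 4.204 and 4.53 with WCS417, against 5.26, 5.33 and 5.23 untreated. For Col-0 the values were 4.32, 4.26 and 4.21 with WCS417, against 5.09, 4.98 and 5.16 untreated. No colonized array reached an untreated array of any genotype. The falls of GSTU16 were -0.62 ± 0.14 in oxMYB72 (adjusted p = 0.00353), -1.02 ± 0.14 in myb72-2 (adjusted p = 2.26e-05) and -0.81 ± 0.14 in Col-0 (adjusted p = 0.000319).

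The lambda GST GSTL3 fell by 0.32 in oxMYB72, by 0.48 in myb72-2 and by 0.38 in Col-0, and its call in oxMYB72 was lost without untreated replicates 2 (-0.32) or 3 (-0.28) or WCS417 replicate 3 (-0.27), or with only the arrays compared (adjusted p = 0.0551). GSTU27 fell by 0.43 in oxMYB72 and by 0.50 in myb72-2. The first of these calls was lost without any 1 of untreated replicates 1 (-0.43), 2 (-0.42) or 3 (-0.45) or of WCS417 replicates 1 (-0.30) or 2 (-0.46), and the call in myb72-2 without untreated replicate 1 (-0.44) or WCS417 replicate 1 (-0.42). GSTU18 fell in oxMYB72 by 0.55, a call lost without WCS417 replicate 1 (-0.41). It was not called in myb72-2 or Col-0 (-0.28 in Col-0), and the difference of the effects, oxMYB72 minus myb72-2, was not called (-0.51). GSTU15, GSTU21, GSTU23, GSTU26, GSTU28 and the phi GSTs GSTF4 and GSTF13 were called in no comparison. Some alternatives did call GSTU26 higher with WCS417 in oxMYB72. These were quantile normalization again, a variance trend with robust moderation, and the fit without the dimmest 30% of probe sets. Leaving out oxMYB72 WCS417 replicate 1 gave that call too, and leaving out other single arrays brought calls of GSTU21 and GSTU28.

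Between myb72-2 and Col-0, UGT73B4 came near the threshold. In colonized roots UGT73B4 was higher in myb72-2 by 0.67 ± 0.14 with no overlap between the groups (adjusted p = 0.0781). It was called under a variance trend with robust moderation and without myb72-2 WCS417 replicate 1, which made the count 1 in place of 0. GSTU20 and UGT72E1 were not near it. For GSTU20 the difference, myb72-2 minus Col-0, was -0.55 ± 0.16 in colonized roots (adjusted p = 0.346) and -0.41 ± 0.16 in untreated roots (not called). For UGT72E1 it was -0.32 ± 0.10 in colonized roots (adjusted p = 0.409). The median standard error of a difference between 2 groups was 0.13 over the 61 genes, and that of a difference of effects 0.18. All differences between untreated myb72-2 and Col-0 lay between -0.41 and 0.20, and those between colonized roots between -0.55 and 0.67.

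By subfamily, the numbers called were small, and differences between subfamilies were not tested. They stand beside the shares of all probe sets called, which were 19.3% in oxMYB72, 21.4% in myb72-2 and 15.3% in Col-0. Of the 9 UGT71 genes, 1 rose and 2 fell in oxMYB72, with 1 and 1 in myb72-2 and 1 and 1 in Col-0, and their changes in oxMYB72 ran from -0.49 (UGT71C4) to 0.74 (UGT71C3) around a median of -0.09. Of the 7 UGT73 genes, 4 fell and 0 rose in oxMYB72, 3 fell and 1 rose in myb72-2, and 3 fell and 1 rose in Col-0. Among the 8 UGT76 genes 1 fell in each genotype, UGT76B1. Of the 5 UGT84 genes, 2 rose in oxMYB72, 3 in myb72-2 and 3 in Col-0, and 0 fell. Of the 11 GSTU genes, 1 rose and 5 fell in oxMYB72, 1 rose and 4 fell in myb72-2, and 1 rose and 3 fell in Col-0. Their medians were 0.07 in oxMYB72, -0.04 in myb72-2 and 0.00 in Col-0, near 0 in each genotype.

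Many of the genes are neighbours. By the order of genes in the RefSeq table, 37 of the 61 lie in 15 runs with at most 2 genes between members, and 17 lie in 5 runs of 3 or more. For the WCS417 effect, the counts were alike in the 3 genotypes: 7 of the 15 runs had no gene called, 4 had 1, 2 had several called in the same direction and 2 had genes called in both directions. The runs with no gene or 1 gene called were in part different ones in oxMYB72 than in myb72-2 and Col-0. Differences between neighbours were not tested, and the runs described next were picked after their values were seen. In the run UGT71C5, UGT71C4 and UGT71C3 on chromosome 1, UGT71C3 rose, UGT71C4 fell and UGT71C5 was not called. In the run GSTU23, GSTU22, GSTU21 and GSTU20 on chromosome 1, GSTU22 fell and GSTU20 rose, with GSTU23 and GSTU21 not called. GSTU25 fell, while the adjacent GSTU26 was not called (0.44 in oxMYB72, -0.05 in myb72-2 and 0.23 in Col-0). Some alternatives, given above, called GSTU26 higher in oxMYB72. UGT84B1 rose in myb72-2 and Col-0, and the adjacent UGT84B2, a probe set among the dimmest 30%, was called in no comparison. In the pair UGT73B5 and UGT73B4 on chromosome 2 both genes fell in every genotype. Of UGT85A7, UGT85A2, UGT85A5 and UGT85A3 on chromosome 1, UGT85A2 was called, in oxMYB72. None of the 61 probe sets carries the suffix that marks probes shared between genes, yet cross-hybridization among these related sequences was not tested.

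**Figure D5:**
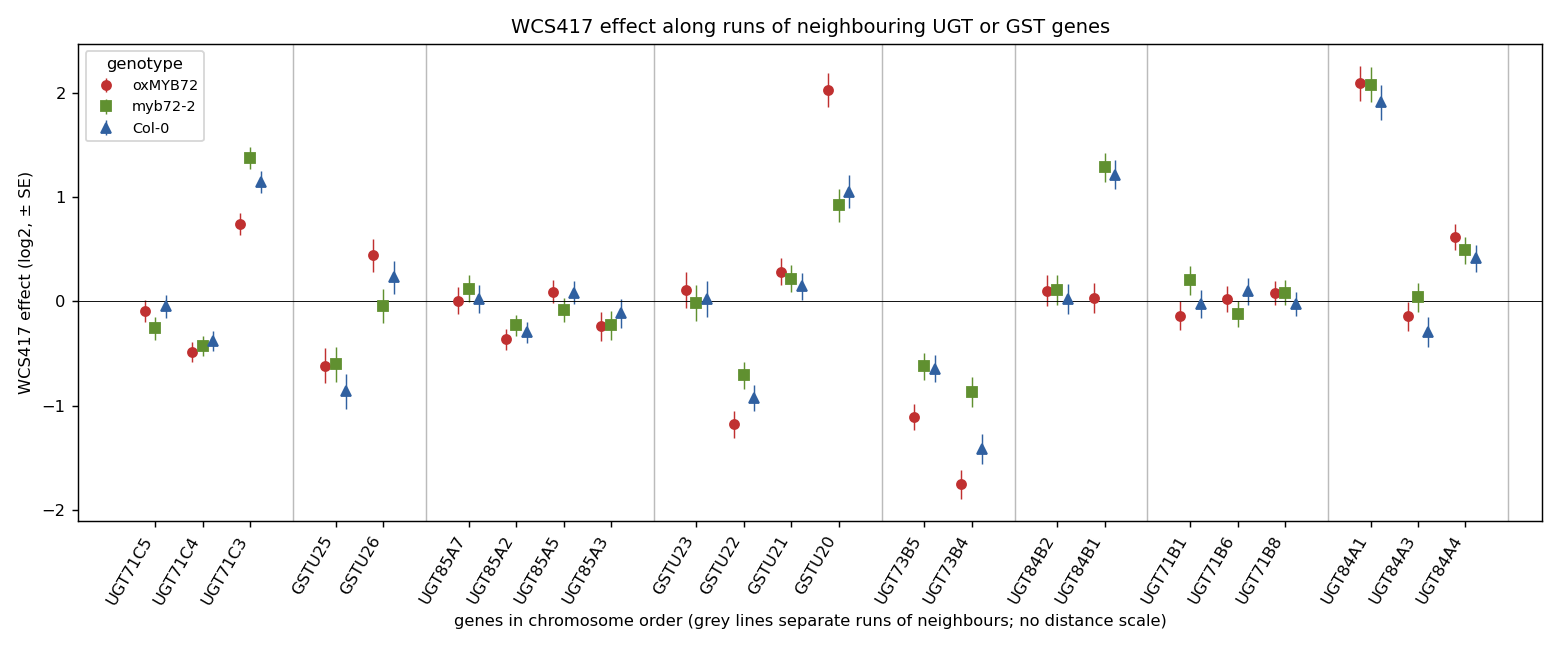
WCS417 effect (log2, ± SE) in oxMYB72 (circles), myb72-2 (squares) and Col-0 (triangles) for 8 runs of neighbouring genes in chromosome order, without a distance scale. UGT71C3 lies above 0 beside UGT71C4 below 0, and GSTU20 above 0 in the same run as GSTU22 below 0.

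Of the 61 genes 17 were among the dimmest 30% of probe sets by mean level, and 2 of these (UGT84B1 and UGT73C7) were called in any comparison. Of the other 44 genes 28 were called. Over all probe sets 9.13% of the dimmest 30% and 44.5% of the others were called in at least 1 comparison. Among the 17 a gene that is not called may be below what the array measures.

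Genes of the pathways that supply or use these enzymes were measured in part. Of 15 genes of glutathione synthesis and recycling 2 were measured, the glutathione reductases GR1 and GR2, and 0 were called in any of the 3 responses. Of 13 genes of detoxification of xenobiotics and oxylipins 1 was measured, AER, an alkenal reductase (AT5G16970). It fell by 1.17 in oxMYB72, by 1.67 in myb72-2 and by 1.55 in Col-0. Of 18 genes of phenylpropanoid and monolignol synthesis 2 were measured. HCT, a hydroxycinnamoyltransferase, fell by 0.45 in oxMYB72 and rose by 0.44 in Col-0, and it was higher in untreated oxMYB72 than in untreated myb72-2 by 2.34 ± 0.11. CCR2, a cinnamoyl-CoA reductase, fell by 0.63 in oxMYB72 and by 0.35 in Col-0. Of 10 flavonoid genes 1 was measured, DFR, and of 6 genes of salicylate turnover 1, BSMT1, and neither was called in the 3 responses. Of 7 root beta-glucosidases, which remove the sugars that UGTs add, 4 were measured. BGLU42 was called higher in all 3 genotypes, by 2.35 in oxMYB72, 0.66 in myb72-2 and 2.17 in Col-0. The effect on BGLU42 was called smaller in myb72-2 than in Col-0 (-1.52 ± 0.17) and larger in oxMYB72 than in myb72-2 (1.69 ± 0.17). BGLU46 fell by 0.83 in oxMYB72. Of 5 coumarin genes 3 were measured, of which 2 rose in oxMYB72, 3 in myb72-2 and 3 in Col-0. AT3G12900 rose by 3.68 in oxMYB72, 5.09 in myb72-2 and 5.40 in Col-0. AT3G13610, which encodes the hydroxylase that opens the route to scopoletin, rose by 0.40 in oxMYB72, 1.84 in myb72-2 and 2.02 in Col-0. In untreated roots all 3 measured coumarin genes were higher in oxMYB72 than in myb72-2, AT3G12900 by 1.54 and AT3G13610 by 1.45. With WCS417 the differences of AT3G12900 (0.13) and AT3G13610 (0.01) between these genotypes were not called. The remaining gene, AT1G28680, was still called higher in oxMYB72 there (0.49). Of 14 genes of camalexin and indole glucosinolates 0 were measured by a single-gene probe set.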

How the data were processed

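Root RNA of 6 groups with 3 samples each was hybridized to Affymetrix ATH1 arrays. The deposited values are log2 expression per probe set made by RMA, per the submitters' processing notes. As a method, RMA corrects background, equalizes the arrays' distributions and summarizes probes. No source used here gives its version. The log2 scale was read from the range of the values (2.42 to 14.63). RMA narrows differences of dim probe sets. Array medians lay between 6.29 and 6.42, and 3 arrays a group limit the precision.

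Of 22810 probe sets 64 controls were left out. Of the 22746 tested, 13513 name 1 gene, 503 several and 8730 none in the platform annotation, and all 61 loci were found with the same symbol in RefSeq. A mean per group was fitted over all 18 arrays with limma 3.58.1 in R 4.3.3, followed by 9 contrasts, eBayes and Benjamini-Hochberg adjustment over all probe sets, with calls at an adjusted p under 0.05, two-sided. Intervals are 95% intervals of the model. The procedure was tested on simulated data with known changes and independent noise between arrays, which does not test the calls made here. Figures were drawn with matplotlib 3.10.9. The genes and the lists were chosen with earlier results of these data known. Array values are given for up to 4 called genes per direction and comparison with the largest change and no overlap between groups, for up to 4 per direction among the differences of effects, for UGT72E1 and for a few others (UGT84A4 and UGT73B5 among them). Results were recomputed with the values quantile-normalized a further time or centred on array medians, with eBayes set to a variance trend and robust moderation, and with the replicate number as a block. They were also recomputed on the arrays of each comparison alone, without the dimmest 30% of probe sets, with the mean of a gene's probe sets, and leaving out each array. Same-numbered samples deviated together in 7 of 21 pairs (correlation over 0.1). The 21 correlations ran from -0.20 (colonized oxMYB72 and myb72-2) to 0.26 (colonized myb72-2 and Col-0), so the numbers were not taken as pairs.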

Additional observations from a re-analysis of the deposited data

Results flagged for a closer look

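For 7 genes the WCS417 effect differed between oxMYB72 and myb72-2 by a test of the difference itself (limma, adjusted over all probe sets). UGT72E1 (1.20 ± 0.14) and GSTU20 (1.10 ± 0.23) had the larger rise in oxMYB72. UGT84B1 (-1.25 ± 0.20) rose in myb72-2 and was not called in oxMYB72. UGT71C3 (-0.63 ± 0.15) rose by less in oxMYB72 than in myb72-2, and its difference was lost as a call without untreated replicate 1 (-0.60) or WCS417 replicate 2 (-0.60) of myb72-2, or untreated replicate 1 (-0.56) or WCS417 replicate 2 (-0.56) of oxMYB72. UGT73B4 (-0.89 ± 0.20) fell by more in oxMYB72 than in myb72-2, and its difference was lost as a call without myb72-2 untreated replicate 3 (-0.75). UGT87A2 (-1.12 ± 0.14) fell in oxMYB72 and was not called in myb72-2. UGT73D1 (-0.96 ± 0.20) fell in oxMYB72 and rose in myb72-2, each by a call that single arrays could end. For UGT72E1 and UGT87A2 the 2 lines differed without WCS417 and were not called different with it, while for the other 5 genes they were called different with it and not without it.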

How the results depend on the processing

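Among the called changes of the 61 genes, which are the values recomputed gene by gene, none changed direction under the alternatives run. Of these recomputed values 1060 kept their direction and side of the threshold and 82 kept the direction but were no longer called. The number of genes called between colonized myb72-2 and Col-0 was 1 in place of 0 with a variance trend and robust moderation (UGT73B4, higher), and leaving out single arrays gave 0 to 1. Genes called lower in Col-0 numbered 7 to 10 when single arrays were left out, in place of 11, and 7 against 9 higher without Col-0 untreated replicate 2. The cause was not tested. All other counts stayed within 1.5 times their value. With the replicate block, calls were 19 in place of 20 in myb72-2 (without UGT72E2) and 23 in place of 22 in oxMYB72 (with UGT76E2), and the numbers of calls in the other comparisons did not change. Without the dimmest 30% of probe sets UGT84B1 had no value. Probe sets near background limit what 17 of the 61 genes can show.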
